A study of Saccharomyces cerevisiae with 12 samples.

Results

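The genes described here encode the proteins of the large (60S) subunit of the cytosolic ribosome of the budding yeast *Saccharomyces cerevisiae*. They are the 81 of 6347 rows of the expression table whose gene name is RPL followed by a number, with or without a final A or B, together with RPP0, RPP1A, RPP1B, RPP2A and RPP2B. The table's own annotation describes each as a ribosomal protein, and all 81 matched a RefSeq locus, on 14 chromosomes. They stand for 46 gene names: 11 genes without a copy and 35 pairs of A and B copies.

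The study compared D452-2 yeast strains with the plasmid pRS316 bearing cdt-1, a gene from the mould *Neurospora crassa* whose product takes up cellodextrins. OPT cells carried cdt-1 with codons optimized for the host, and NC cells carried it with its endogenous codons. Cells were in mid-exponential growth, and the title concerns how elongation bears on the quality of membrane proteins made. The mRNA libraries of 3 OPT and 3 NC cultures, whose replicate numbers here follow the order of the libraries and pair nothing, are described, and the 6 libraries of ribosome-protected fragments of the 12 in the series were not analysed here, so every value is an mRNA level. Both strains shared the host and the plasmid backbone. The sources used here give neither the promoter of cdt-1 nor the medium nor the number of clones behind each strain.

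The large subunit holds the peptidyl transferase centre, which joins amino acids, and the tunnel through which the new protein leaves. Its ribosomal proteins are made in near-equal amounts from very abundant mRNAs, whose genes are under shared control by Rap1, Fhl1 and Ifh1 and by TORC1 signalling, and are transcribed less when growth slows or cells are stressed. Most of these genes were kept as A and B copies after an ancient genome duplication, and in most pairs the copies encode identical or nearly identical proteins. The stalk proteins P0, P1 and P2 form the flexible arm that recruits translation factors.

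Levels are the authors' normalized RPKM, a measure of reads per length of gene. The values of a library added up to 999285 to 999421, a near-constant total, and the sources used here do not say how they were normalized. Low values times gene length fell on whole reads in each library, which put the reads on matched coding genes at about 41800000, 32700000 and 33300000 in OPT replicates 1, 2 and 3 and at about 30300000, 23200000 and 25600000 in NC replicates 1, 2 and 3. These totals used the full gene span throughout. They are too high for genes whose RPKM rests on a shorter length, as it does for 53 of the 81 members. The optimized cdt-1 row stood at 420, 557 and 530 RPKM in OPT libraries and was listed at 0 in NC libraries, and the row with endogenous codons was listed at 0 in OPT libraries and stood at 518, 506 and 567 in NC libraries. Rows of ribosomal RNA took 1.06, 1.30 and 0.174% of all RPKM in OPT and 0.156, 0.227 and 0.411% in NC.

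The large-subunit genes as a whole stood slightly higher in OPT, and the NC libraries differed among themselves by as much. They took 8.10, 8.35 and 8.14% of all RPKM in OPT replicates 1, 2 and 3, against 8.01, 6.46 and 6.54% in NC replicates 1, 2 and 3. The NC replicate 1 value lay next to the OPT values, while NC replicates 2 and 3 lay well below. The means were 8.19 ± 0.134% in OPT and 7.01 ± 0.874% in NC (SD, n = 3 each). Permuting the strain labels over the 6 values in every way (exact, two-sided) gave p = 0.1, the smallest that 3 against 3 can give. This is a share of summed RPKM, which are scaled by gene length, not a share of reads, and less ribosomal protein mRNA per cell and more of other mRNAs cannot be told apart in it.

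That pattern ran through nearly all members. NC replicate 1 was the highest NC library for 77 of the 81 genes, and it reached the OPT range, at or above the lowest OPT library, for 42. NC replicate 2 lay below all OPT libraries for 76 genes and NC replicate 3 for 75. The coefficient of variation was larger in NC than in OPT for all 81 genes, with medians of 3.07% in OPT and 13.6% in NC. The genes share the 6 libraries, so these counts are not separate observations, and their shares over all features are not given here. Relative to each gene's mean over the 6 libraries, the median log2(RPKM + 1) of all 5982 features tested was -0.02, -0.04 and -0.02 in OPT. In NC replicates 1, 2 and 3 it was 0.03, 0.08 and -0.01.

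**Figure D1:**
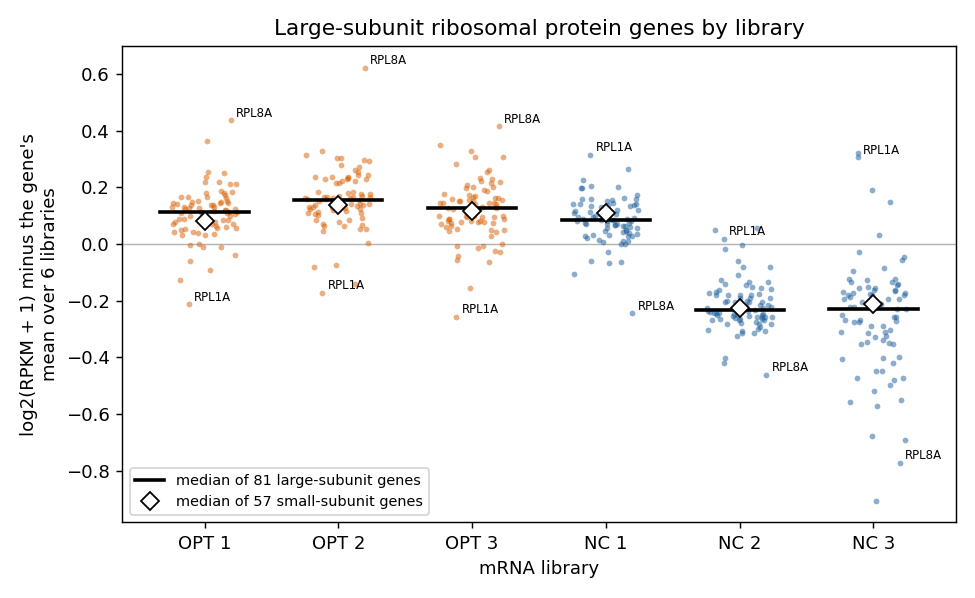
Level of each of the 81 genes in each mRNA library, as log2(RPKM + 1) minus the gene's mean over the 6 libraries; points are genes, bars their median, diamonds the median of 57 small-subunit genes. The medians lie between 0.11 and 0.16 in OPT and at 0.08, -0.23 and -0.23 in NC replicates 1, 2 and 3; RPL8A is lower and RPL1A higher than the median in each NC library.

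Few single genes passed the test. Values were compared as log2(RPKM + 1) with limma across all 5982 yeast features that had a mean of at least 1 RPKM, and an adjusted p (Benjamini-Hochberg) under 0.05 was a call. All 81 genes passed that filter. Of them 7 rose in OPT and 1 fell, against 5.38% of all tested features that rose and 13.8% that fell. The fold change was positive for 74 of the 81 genes, with a median log2 fold change of 0.26, against -0.06 over all features. The OPT libraries lay above all NC libraries for 38 of the 81, against 13.1% of all features, and below all of them for 2, against 27.6%. Without NC replicate 1, 55 genes rose, against 5.84% of all features, and without NC replicate 2 it was 2, against 5.82%. Without OPT replicate 1, 2 or 3 it was 2, 1 and 1, against 2.52, 2.24 and 3.11% of all features. An unadjusted p under 0.05 was reached by 39 of the 81 genes with all libraries. The share of all features at that threshold is not given here, so this count does not set the genes apart.

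RPL8A, which encodes a protein at the periphery of the subunit (YHL033C, chromosome VIII, 35255 to 36025 in build R64), rose more than any other member. It stood at 561, 639 and 553 RPKM in OPT libraries, against 350, 301 and 242 RPKM in NC libraries. All OPT libraries lay far above all NC libraries, with means of 584 ± 47.1 in OPT and 298 ± 53.9 in NC. Its log2 fold change was 0.98 (standard error 0.14, limma adjusted p = 0.00652), and this call held under each alternative that was run.

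The other 6 genes that rose did so by smaller factors. RPL9B (YNL067W, chromosome XIV, 499681 to 500256) had 585, 658 and 673 RPKM in OPT, against 491, 428 and 399 in NC, a log2 fold change of 0.54 (adjusted p = 0.0152). RPP2A, a stalk protein, had 760, 805 and 734 RPKM in OPT, against 668, 530 and 497 in NC (log2 fold change 0.45, adjusted p = 0.0447). RPL17A, whose protein lines the exit tunnel, had 883, 923 and 906 RPKM in OPT, against 780, 641 and 611 in NC (0.42, adjusted p = 0.0349). For all of these the OPT libraries lay above every NC library. RPL43A had 1498, 1444 and 1464 RPKM in OPT, against 1230, 1034 and 1124 in NC (0.38, adjusted p = 0.0276). RPL22A had 847, 869 and 913 RPKM in OPT, against 764, 650 and 600 in NC (0.39, adjusted p = 0.0436). RPL19A, of a bridge between the subunits, had 1055, 1118 and 1087 RPKM in OPT, against 958, 795 and 745 in NC (0.39, adjusted p = 0.0473). In each gene NC replicate 1 came nearest to OPT. Each of these 6 calls ended without OPT replicate 2 and without OPT replicate 3, and all but that of RPL9B also ended without OPT replicate 1 and without NC replicate 2 (adjusted p up to 0.161). Those of RPP2A, RPL22A and RPL19A ended as well without NC replicate 3 and with no filter, and these and that of RPL17A with quantile normalization.

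RPL1A was the single member that fell. Its protein, with the identical product of RPL1B, forms the L1 stalk, a mobile arm at the site where spent tRNA leaves. RPL1A (YPL220W, chromosome XVI, 135790 to 136443) had 670, 689 and 649 RPKM in OPT, against 966, 786 and 960 RPKM in NC. The lowest NC library lay above the highest OPT library. The means were 669 ± 19.8 in OPT and 904 ± 102 in NC, and the log2 fold change was -0.43 with a standard error of 0.10 (adjusted p = 0.0288). The call ended with equal library medians (adjusted p = 0.077), without each of the OPT libraries in turn and without NC replicate 1, where adjusted p reached 0.105.

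**Figure D2:**
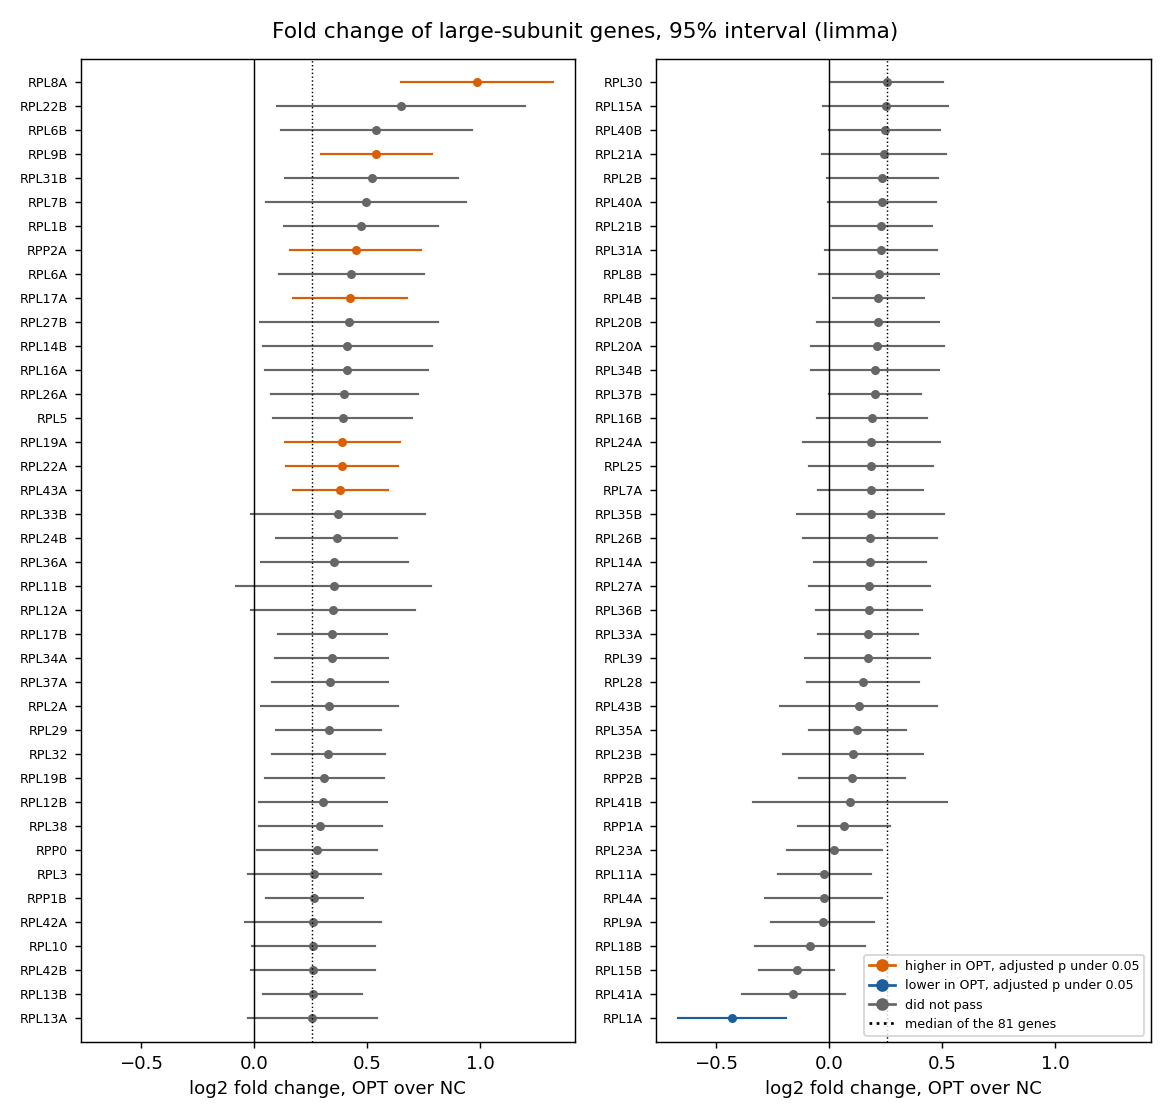
Log2 fold change of 80 of the 81 genes, OPT over NC, with its 95% confidence interval from limma, ordered by size; colours mark calls and the dotted line the median of 0.26 over all 81. RPL8A at 0.98 and RPL1A at -0.43 lie at the 2 ends, and 56 of the 81 genes lie within 0.15 of the median.

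At the positive end of the order stood several genes of low level that did not pass. RPL22B, the minor copy of RPL22A, had 187, 179 and 179 RPKM in OPT, against 138, 144 and 76.9 in NC (log2 fold change 0.65, adjusted p = 0.0939). RPL6B had 341, 361 and 365 RPKM in OPT, against 302, 264 and 182 in NC (0.54, adjusted p = 0.077). RPL31B, whose protein sits at the rim of the tunnel where the chaperone Zuo1 docks, had 571, 640 and 619 RPKM in OPT, against 550, 380 and 366 in NC (0.52, adjusted p = 0.064). In these genes the groups did not overlap, but the spread among NC libraries was wide, and NC replicate 3 stood lowest in each. Without NC replicate 3, RPL22B had a smaller log2 fold change of 0.36 but passed (adjusted p = 0.0104), as did RPL6B at 0.33 (adjusted p = 0.0305). Without NC replicate 1, RPL6B at 0.69 and RPL31B at 0.71 passed (adjusted p = 0.0334 and 0.00741). RPL7B, another of the 5 genes of lowest level, had 201, 231 and 235 RPKM in OPT, against 193, 173 and 116 in NC (0.49, adjusted p = 0.111). The 11 genes without a copy lay in the middle of the order, at 0.15 to 0.39: limma called none of them, where 5.38% of all features rose, and 5 had OPT libraries above all NC libraries, where 13.1% of all features did.

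At the negative end, 6 genes besides RPL1A had a fold change below 0, and none of them passed. RPL41A encodes the smallest ribosomal protein, a short helix between the subunits, and had 1878, 1798 and 1700 RPKM in OPT, against 2031, 1816 and 2159 in NC (log2 fold change -0.16, adjusted p = 0.291). RPL15B had 130, 119 and 126 RPKM in OPT, against 132, 136 and 145 in NC (-0.14, adjusted p = 0.193). RPL18B had 152, 157 and 175 RPKM in OPT, against 190, 172 and 152 in NC (-0.08, adjusted p = 0.607). The groups overlapped in RPL41A and RPL18B and just failed to overlap in RPL15B. RPL9A, RPL4A and RPL11A, at -0.03, -0.02 and -0.02, made up the rest.

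Calls by position in the subunit stand beside 5.38% of all tested features that rose and 13.8% that fell. With so few genes in each group, these counts set no position apart from those shares. Of 4 genes at the peptidyl transferase centre and its tRNA contacts, RPL2A, RPL2B, RPL3 and RPL10, none was called, with log2 fold changes of 0.24 to 0.33. Of 5 genes of the tunnel wall, RPL17A rose, and the range with RPL4A, RPL4B, RPL17B and RPL39 was -0.02 to 0.42. Of 9 genes at the tunnel rim, where chaperones and the signal recognition particle dock, RPL19A rose and the range was 0.13 to 0.52. RPL5, RPL11A and RPL11B, whose proteins hold the 5S rRNA, were not called, at 0.39, -0.02 and 0.35. RPL40A and RPL40B, made as fusions to ubiquitin, were not called either, at 0.23 and 0.25. These groups of positions were set after the values were known.

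Among the 5 members of highest mean level none was called, where 5.38% of all tested features rose and 13.8% fell. RPL39, a small protein in the tunnel wall, had 2708, 2567 and 2520 RPKM in OPT, against 2683, 2063 and 2216 in NC. RPL10, which contacts the tRNA in the peptidyl site and joins the subunit last, had 2432, 2650 and 2735 RPKM in OPT, against 2498, 1976 and 2071 in NC. RPL28, the target of cycloheximide resistance mutations, had 2126, 2229 and 2168 RPKM in OPT, against 2240, 1830 and 1836 in NC. In all 3, NC replicate 1 lay inside or above the OPT range. RPL3, at the peptidyl transferase centre, had 1897, 2186 and 2027 RPKM in OPT, against 1944, 1688 and 1467 in NC. Together with RPL41A these had log2 fold changes of -0.16 to 0.27, with adjusted p of 0.156 to 0.351.

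The stalk's share of the large-subunit mRNA did not differ beyond the spread of the libraries. RPP0, the stalk's anchor on the ribosome, had 881, 944 and 963 RPKM in OPT, against 885, 744 and 680 in NC (log2 fold change 0.28, adjusted p = 0.127). The 5 stalk genes together made up 5.88, 5.81 and 5.71% of large-subunit RPKM in OPT, against 5.75, 5.89 and 5.92% in NC. The groups overlapped, and the difference of -0.06 percentage points gave p = 0.5 in the exact permutation test.

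Within the stalk, RPP1B and RPP2A lay above NC in every OPT library, and RPP1A and RPP2B overlapped. In yeast, P1 alpha (RPP1A) forms a dimer with P2 beta (RPP2B), and P1 beta (RPP1B) with P2 alpha (RPP2A). RPP1B had 1124, 1109 and 1074 RPKM in OPT, against 1013, 845 and 896 in NC, whereas RPP1A had 918, 905 and 857 in OPT, against 931, 795 and 839 in NC. RPP2B had 1074, 1080 and 1012 RPKM in OPT, against 1107, 893 and 960 in NC. Only RPP2A of the 4 was called on its own level. Summed, RPP1B and RPP2A stood at 1884, 1914 and 1808 RPKM in OPT, above the 1681, 1375 and 1392 in NC, while RPP1A and RPP2B summed to 1992, 1985 and 1869 in OPT, overlapping 2038, 1688 and 1799 in NC. RPP1B and RPP2A made up 48.6, 49.1 and 49.2% of the 4 genes' RPKM in OPT, against 45.2, 44.9 and 43.6% in NC. This grouping was made after the values were seen and was not tested.

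A and B copies were then compared within each library, which removes any shift that a library's large-subunit genes share. Of the 35 pairs, the A copy was the more abundant in 17 and the B copy in 18, and 24 pairs were balanced to within a factor of 2. RPL15 and RPL22 were among the 3 pairs with the largest imbalance. RPL15A had 1751, 1858 and 1842 RPKM in OPT, against 1798, 1416 and 1401 in NC, and made up 93.1, 94.0 and 93.6% of its pair in OPT and 93.2, 91.2 and 90.6% in NC. RPL22A made up 81.9, 82.9 and 83.6% in OPT and 84.7, 81.8 and 88.6% in NC. Reads from near-identical stretches cannot be placed on a single copy, and the sources used here do not say how the authors treated them, so a measured ratio may lie nearer to equality or be split by rule.

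The ratio of A to B changed in 7 of the 35 pairs, 3 toward the A copy and 4 toward the B copy. The test was limma on log2((A + 1)/(B + 1)) over all 61 pairs of rows in the table named alike but for a final A or B. Of these, 59 are ribosomal, and 16.4% of the 61 were called. The called pairs outside the large subunit were RPS21, RPS22 and RPS29 of the small subunit. Their changes were -0.61, 0.61 and -0.42 (limma adjusted p = 0.0003, 0.0224 and 0.0028). Changed ratios were thus not particular to the large subunit. The groups did not overlap in 15 of the 35 ratios, against 45.9% of the 61 pairs. The count of called large-subunit pairs was 3, 3 and 2 without OPT replicates 1, 2 and 3, 4 without NC replicate 2 and 11 without NC replicate 3. Shares over the 61 pairs are not given for these counts.

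The RPL1 pair showed the largest change, toward the B copy. RPL1A made up 38.1, 37.6 and 36.2% of the pair in OPT, against 49.2, 49.9 and 58.7% in NC. RPL1B (YGL135W, chromosome VII, 254641 to 255294) had 1086, 1145 and 1144 RPKM in OPT, against 997, 789 and 675 in NC. The groups were well apart in the ratio, whose change of log2 was -0.90 with a standard error of 0.15 (adjusted p = 0.00869), called under every alternative run. The sum of both copies stood at 1756, 1834 and 1793 RPKM in OPT, inside the 1963, 1575 and 1635 RPKM in NC.

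The RPL8 pair changed toward the A copy. RPL8A made up 41.4, 42.5 and 37.6% of the pair in OPT, against 29.4, 31.2 and 25.3% in NC. RPL8B (YLL045C, chromosome XII, 47859 to 48629) had 795, 862 and 918 RPKM in OPT, against 841, 662 and 715 in NC, which overlapped (log2 fold change 0.22, adjusted p = 0.212). The change of the log2 ratio was 0.77 with a standard error of 0.13 (adjusted p = 0.00869), also called under every alternative run. Here the sum moved too, with 1356, 1501 and 1471 RPKM in OPT above the 1191, 963 and 957 RPKM in NC.

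The RPL9 pair changed toward the B copy. RPL9A had 380, 424 and 402 RPKM in OPT, against 452, 367 and 415 in NC, and made up 39.4, 39.2 and 37.4% of the pair in OPT, against 47.9, 46.2 and 51.0% in NC. The change of the log2 ratio was -0.57 with a standard error of 0.10 (adjusted p = 0.00869), and it was short of the threshold only without OPT replicate 3 (adjusted p = 0.0515). RPL9A overlapped between strains while RPL9B rose.

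The pairs of RPL4, P1 and P2 were also called and changed by less. RPL4A had 1075, 1169 and 1088 RPKM in OPT, against 1292, 1107 and 1006 in NC, and RPL4B had 498, 533 and 522 in OPT, against 487, 440 and 412 in NC. RPL4A made up 68.3, 68.7 and 67.6% of that pair in OPT and 72.6, 71.6 and 71.0% in NC (change -0.24, adjusted p = 0.0249). The groups did not overlap in the share, and the gap between them was wider than the range within either. RPP1A made up 45.0, 44.9 and 44.4% of the P1 pair in OPT and 47.9, 48.5 and 48.4% in NC (change -0.20, adjusted p = 0.02). RPP2A made up 41.4, 42.7 and 42.0% of the P2 pair in OPT and 37.6, 37.2 and 34.1% in NC (change 0.35, adjusted p = 0.02). Leaving out OPT replicate 1, 2 or 3 ended each of these 3 calls, with adjusted p of 0.13 at most. Leaving out NC replicate 2 ended those of RPL4 and of RPP1A with RPP1B.

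**Figure D3:**
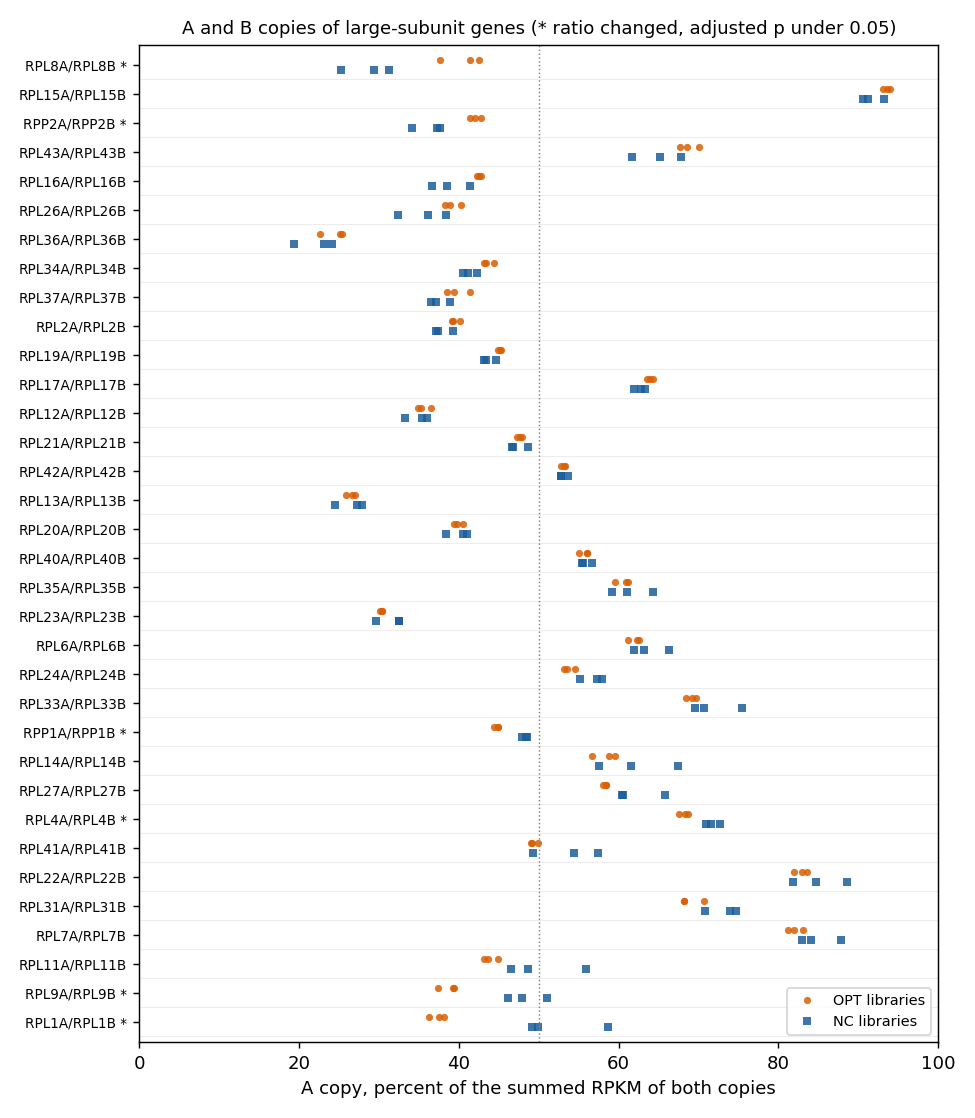
Share of the A copy in the summed RPKM of 34 of the 35 pairs, in percent, with OPT libraries as circles above and NC libraries as squares below; pairs are ordered by change of ratio and an asterisk marks the 6 of these that were called. RPL8 (top) lies at 37.6 to 42.5% in OPT and 25.3 to 31.2% in NC, and RPL1 (bottom) at 36.2 to 38.1% in OPT and 49.2 to 58.7% in NC.

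For the other 28 pairs no change was called. RPL15, the next largest, had a change of 0.39 (adjusted p = 0.0867, and 0.0199 without NC replicate 1). In 10 of the 35 pairs the 95% interval of the change lay within 0.25 of 0 on the log2 scale. This bounds the change of the measured RPKM ratio only. Where reads could not be placed on a single copy, the ratio of the mRNAs may have changed by more. RPL42 had an interval of -0.10 to 0.11, RPL21 of -0.11 to 0.14 and RPL40 of -0.12 to 0.10. Over all pairs, the A copies together made up 52.0, 52.2 and 52.1% of paired RPKM in OPT, against 52.5, 53.0 and 52.9% in NC. The groups did not overlap, although the difference was only -0.66 percentage points (exact permutation p = 0.1, the smallest possible).

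The less abundant copy had the larger log2 fold change in 23 of the 35 pairs. The median log2 fold change was 0.34 for the 35 less abundant copies and 0.23 for the 35 more abundant ones, and 0.25 for A and 0.25 for B copies. Across the 81 genes the Spearman correlation of fold change with mean RPKM was -0.32, a description only, since the genes share libraries.

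**Figure D4:**
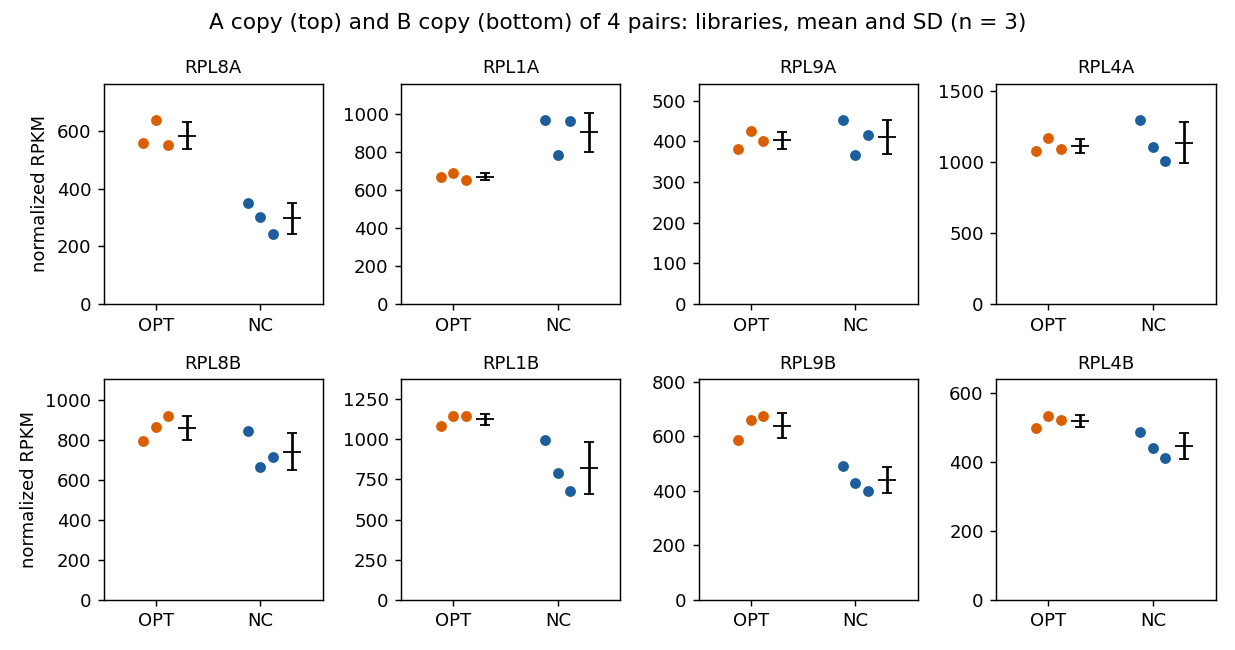
Normalized RPKM of the A copy (top) and the B copy (bottom) of 4 called pairs in each OPT and NC library, with mean and SD (n = 3); vertical axes start at 0 and differ between panels. RPL8A averages 584 in OPT and 298 in NC, RPL1A 669 and 904, and RPL9B 639 and 439, while RPL4A overlaps between strains.

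The copies of each pair were also summed, since sums over the 46 names depend less on how reads are split between copies. Their log2 ratio of mean OPT over mean NC ran between -0.05 for RPL41 and 0.48 for RPL8, with a median of 0.25. RPL6, RPL22 and RPL17 followed RPL8, at 0.45, 0.42 and 0.39, and RPL4 and RPL1 stood beside RPL41, at 0.04 and 0.06. Sums per length were of similar size across the subunit: mean OPT levels ran between 930 RPKM for RPP0 and 3632 for RPL41, with a median of 1720, and 39 of 46 lay within 1.5-fold of it. Both RPL41 copies are only 78 nucleotides long, the shortest members, and RPL41B varied widely in NC, at 1706, 1345 and 2226 RPKM.

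The small-subunit genes, 57 rows, served as the closest comparison. They too stood low in NC replicates 2 and 3: relative to each gene's mean over 6 libraries, their median was 0.08, 0.14 and 0.12 in OPT, against 0.11, -0.22 and -0.21 in NC, and their median log2 fold change was 0.22. The ratio of summed large-subunit to small-subunit RPKM was nonetheless higher in OPT, at 1.35, 1.36 and 1.34, against 1.30, 1.31 and 1.32 in NC. The groups did not overlap, with means of 1.35 ± 0.01 in OPT and 1.31 ± 0.0081 in NC (exact permutation p = 0.1, the smallest possible).

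When library medians of the small-subunit genes were set equal, a comparison chosen after the data were seen, the shared shift was gone and the large-subunit median log2 fold change was 0.02. RPL8A then rose by 0.75 (adjusted p = 0.00273), and RPL1A and RPL41A fell, at -0.66 (adjusted p = 0.0051) and -0.39 (adjusted p = 0.0492). No other large-subunit gene was called, while 2.34% of all features rose and 20.2% fell on that scale.

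Over the 6 libraries, 60 of the 81 genes had a Pearson r of at least 0.9 with the members' mean profile, and RPL15B, RPL1A and RPL41A were the 3 below 0. Outside the large subunit 1.24% of features reached 0.9, among them 43 of the 57 small-subunit genes. The 5 most alike were the small-subunit genes RPS16B, RPS2, RPS19A, RPS19B and RPS1B, with r of 0.994 or more. RPS16B stood at 767, 804 and 780 RPKM in OPT, against 757, 577 and 550 in NC. With 6 libraries in 2 strains, these r are descriptions. RPS16B and RPS19B are chromosomal neighbours of RPL13A and RPL18B, with 634 and 626 nucleotides between the annotated genes. RPL13A had an r of 0.99 with the members' mean profile, but RPL18B one of only 0.18.

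Genes that act on or upstream of the large-subunit genes were taken from lists. Of 19 genes of ribosomal protein gene transcription, limma called none (5 at an unadjusted p under 0.05, median log2 fold change -0.03). HMO1, an HMG-box protein at these promoters, had 245, 230 and 244 RPKM in OPT, against 215, 222 and 205 in NC (0.16, adjusted p = 0.128). CKB1, a casein kinase subunit, had 133, 136 and 138 RPKM in OPT, against 150, 156 and 162 in NC (-0.20, adjusted p = 0.0668). In both genes the groups did not overlap. Of 13 genes of TORC1 and Sch9 signalling none was called either (3 at an unadjusted p under 0.05, median -0.02). Over all tested features 5.38% rose and 13.8% fell, and the share at an unadjusted p under 0.05 is not given here. RHO1, a GTPase, had 493, 464 and 479 RPKM in OPT, against 461, 537 and 550 in NC, and SIT4, a phosphatase, had 108, 109 and 111 in OPT, against 102, 99.1 and 94.4 in NC.

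Of 12 tested chaperones of the new chain and of large-subunit proteins, 3 fell and none rose, with a median of -0.21. The shares over all tested features, 13.8% that fell and 5.38% that rose, stand beside this and the counts of the lists that follow, and no list was tested as a whole. ZUO1 and SSZ1 form the ribosome-associated complex, which binds near the tunnel exit. ZUO1 had 275, 287 and 279 RPKM in OPT, against 428, 390 and 416 in NC (log2 fold change -0.55, adjusted p = 0.00399). SSZ1 had 237, 261 and 244 RPKM in OPT, against 390, 335 and 357 in NC (-0.54, adjusted p = 0.0076). BCP1, the chaperone of Rpl23, had 68.0, 70.5 and 60.6 RPKM in OPT, against 112, 93.1 and 82.6 in NC (-0.52, adjusted p = 0.0279). That call ended without any 1 OPT library or NC replicate 2, and with no filter (adjusted p = 0.051). All OPT libraries lay below all NC libraries in these genes, the opposite side from most large-subunit genes. Of 15 tested genes of late 60S assembly and export 1 fell: YVH1, a phosphatase that helps P0 take its place, had 29.8, 34.2 and 29.4 RPKM in OPT, against 72.8, 55.0 and 59.9 in NC (-0.98, adjusted p = 0.00365).

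Other lists moved with the libraries too. A list of 25 stress genes, of which 6 rose in OPT and none fell, had library medians of 0.31, 0.04 and 0.38 around the mean of 6 in OPT, against -0.90, 0.01 and 0.00 in NC replicates 1, 2 and 3. HSP26, a small heat shock protein, had 5055, 4753 and 5870 RPKM in OPT, against 1213, 2554 and 660 in NC (log2 fold change 2.04, adjusted p = 0.0231). That call ended when OPT replicate 1, 2 or 3 or NC replicate 1 was left out, and with no filter (adjusted p = 0.052). DDR2, TKL2 and SPI1, further stress genes that rose, had log2 fold changes of 1.55, 1.43 and 1.15 (adjusted p = 0.0478, 0.0118 and 0.0189). Leaving out OPT replicate 1 ended all 3 of these calls, leaving out OPT replicate 2 or 3 those of DDR2 and SPI1, and leaving out NC replicate 1 that of DDR2 (adjusted p up to 0.149). The DDR2 call also ended with no filter, quantile normalization and a common prior variance (adjusted p = 0.0901, 0.0782 and 0.0532). Among the NC libraries, replicate 1 had the highest ribosomal protein levels and the lowest stress median. Between strains the order was not opposite, since both lists stood higher in every OPT library than in any NC library. The large-subunit medians were 0.11, 0.16 and 0.13 in OPT, against 0.08, -0.23 and -0.23 in NC. The late 60S assembly list had medians of -0.12, 0.02 and -0.24 in OPT, against 0.51, 0.21 and -0.35 in NC, and stood highest in NC replicate 1 as well. What part these differences between libraries have in the large-subunit values was not tested. Of 6 mating type genes, MF(ALPHA)1 and STE3, both of alpha cells, fell (log2 fold changes -1.04 and -0.73, adjusted p = 0.00103 and 0.00724).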

How the data were processed

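The authors deposited a table of normalized RPKM per feature for 6 mRNA libraries, per the file headers. Total RNA went into TruSeq libraries, per the labels' protocols. The submitters' processing notes name CASAVA 1.8.0, Bowtie, TopHat and build R64. The sources used here do not say how reads were counted, placed on near-identical copies or normalized.

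Columns were matched to samples by library name. Replicates are called biological in the design text. After 3 emptied lines and 1 shifted repeat row were left out, 6347 features remained, of which 5992 matched RefSeq (R64). With gene length from RefSeq, 98.1 to 100.0% of 53 to 80 low values per library came within 0.15 of a whole read, which gave the read totals. The full gene span gave whole reads for 28 members, and for the other 53 a shorter length did, so RPKM there rests on a length below the span. Where the span gave whole reads, or only 1 shorter length did, members held 768 to 99370 reads. RPL7A and RPL7B each contain an annotated snoRNA gene.

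Tests used limma 3.58.1 in R 4.3.3 (eBayes with a trend, OPT minus NC, no covariates) on log2(RPKM + 1), which slightly understates changes of low genes, and, for single values, two-sided exact permutation tests in scipy 1.17.1. Both cdt-1 rows were fitted and left out of all counts. On 10 simulated sets of this comparison (5984 features, 200 changed) the test found 87.4% of genes changed by 1 and 56.0% of those changed by 0.5 (log2), with 5.82% of calls false. Noise in these sets was drawn independently for each gene, with no shift shared by genes of a library. These rates therefore need not hold for genes that shift together within a library, as the large-subunit genes did. Named members were those called, the 5 largest and 5 smallest fold changes, the 5 highest and lowest levels, the stalk, and pairs with the largest imbalance or change or a call; other lists gave up to 4 called genes or the 2 most abundant. Members and lists were chosen with earlier results of these data known. The planned share of intron-containing genes was not computed, because no intron annotation was used here. 1 member and the values of its pair are not reported here, though it is in all counts.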

Additional observations from a re-analysis of the deposited data

How the results depend on the processing

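Counts of higher and lower large-subunit genes, 7 and 1 as reported, follow with the share of all features in brackets. They were 4 (4.38%) and 1 (12.8%) with no filter, and 3 (7.02%) and 1 (10.1%) with quantile normalization. Equal library medians gave 11 (7.87%) and 0 (8.21%), and arrayWeights gave 25 (7.12%) and 1 (21.1%). Equal small-subunit medians, an alternative chosen after seeing the data, gave 1 (2.34%) and 2 (20.2%). Leaving out 1 library gave 1 to 55 higher (2.24 to 7.51%) and 0 to 1 lower (3.8 to 25.1%). A pseudocount of 0.1, a filter of 10 RPKM, a common prior variance and a fit to protein-coding genes changed little. They left 7 or 8 higher (5.15 to 5.66%) and 1 lower (13.2 to 14.7%). The median log2 fold change was 0.0232 with equal small-subunit medians and 0.14 to 0.36 in the other alternatives run. The median over all features was -0.06, and -0.30 with equal small-subunit medians. Of the 35 large-subunit pairs, 7 were called in the main fit, where 16.4% of all 61 pairs were. With arrayWeights 11 were called, and without 1 library 2 to 11. Shares over the 61 pairs are not given for these alternatives, so these counts do not set the large-subunit pairs apart. The stalk share difference became 0.0594 points without its most abundant gene. The other 3 shares and ratios kept their direction in each alternative run. Among log2 fold changes of single genes, quantile normalization turned RPL18B to 0.0128, RPL9A to 0.0021, RPL39 to -0.105, RPP1A to -0.0528 and RPP2B to -0.0159. Equal small-subunit medians turned RPL28 to -0.085, RPL39 to -0.0636, RPL4B to -0.0176, RPL8B to -0.0154, RPP1A to -0.169, RPP2B to -0.133, HMO1 to -0.0703 and SIT4 to -0.0842. Equal library medians turned RPL4A to 0.0361 and RPL9A to 0.0324, and arrayWeights turned RPL9A to 0.0221. Without 1 library, RPL4A ran between -0.1072 and 0.0729 and RPL9A between -0.107 and 0.0423. None of these turned values was a call, and the cause was not tested. No paired analysis was possible because the labels give the libraries no replicate numbers, and those used here only name a library. Members held 768 reads or more where the gene span or only 1 shorter length gave whole reads. The number of libraries and the NC spread limit these comparisons.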
